A study of Mus musculus with 2 samples.

Results

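Broad weak peaks are regions whose score, the peak caller's measure of evidence for p53 ChIP over input, was low but which were long for peaks of such a score. They were selected on 2 measured values of the deposited peak list, a score under 100 and a width of 800 bases or more, on chromosomes 1 to 19. There were 561 of them among 92924 peaks in the list, 92231 peaks on the autosomes and 52711 autosomal peaks of score under 100. The other 52150 weak autosomal peaks, narrower than 800 bases, served as the comparison and are called narrow weak peaks. Both score and width are the authors' own values for each peak.

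The list comes from mouse embryonic stem cells of a C57BL/6X129Sv mix at fewer than 20 passages, kept undifferentiated with leukemia inhibitory factor. The cells were treated with Nutlin for 8 hours, and the dose is given as 20 with 2 different units (µM and mM). The series holds 1 library of DNA pulled down with a p53 antibody, P53(M-19), and 1 library of input DNA made without an antibody, both from treated cells. With 1 library in each group there was no test between conditions, and nothing below measures a response to Nutlin or an error between cultures. The intervals below are exact Clopper-Pearson 95% intervals that cover the counting of peaks only. They treat peaks as independent, which neighbours on a chromosome are not.

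p53 is a tumour suppressor that acts as a tetramer and recognises DNA through a pair of short half-sites. Mdm2 marks it for degradation, and Nutlin occupies the pocket of Mdm2 that holds p53, so that p53 accumulates. In ChIP-seq a factor sitting on a single short site usually gives a compact peak whose width is set by the DNA fragments, whereas several sites close together, or a mark spread along open chromatin, give a longer stretch of reads. The peak caller joins overlapping enriched windows, so a broad peak of low score is a long region with weak evidence over input. No sequence, motif or gene annotation of the build used here (mm9) was at hand, so regions are given by position and none is assigned to a gene.

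Width and score chose these peaks and are described only. The widths ran from 800 to 2626 bases with a median of 873 (quartiles 831 and 935), against a median of 447 bases in narrow weak peaks. Most lay just past the threshold. There were 353 of 800 to under 900 bases (62.9%), 135 of 900 to under 1000 bases, 73 of 1000 bases or more, and 2 of 1500 bases or more. Scores ran from 50.03 to 99.91 with a median of 83.6, and narrow weak peaks had a median of 64.6. A score of 90 or more was held by 33.2% of the broad weak peaks and by 9.41% of the narrow ones. Together the broad weak peaks covered 507 kb.

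Peaks lay close to each threshold on both sides. There were 37 weak peaks of 800 to under 810 bases and 63 of 790 to under 800 bases. The narrowest members, of 800 bases, included peaks on chromosome 5 from 136136430 to 136137229 (score 71.9) and, on chromosome 6, one from 30574739 to 30575538 (score 73.7). The widest peaks left out, of 799 bases, lay on chromosome 9 from 65440960 to 65441758 (score 89.4) and, on chromosome 17, from 50072974 to 50073772 (score 91.9). Among peaks of 800 bases or more, 100 had a score of 95 to under 100, and 119 lay in the 5 points above. Of all autosomal peaks this wide, 5.46% (561 of 10272) were weak, so a broad peak was usually a stronger one.

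The 10 widest members lay on 6 chromosomes and had between 3 and 17 other peaks within 50 kb. The widest, of 2626 bases, was on chromosome 1 from 87487589 to 87490214 and scored 94.5. It had 7 other peaks within 50 kb, and the nearest was 4740 bases away. The next was on chromosome 17 from 28645329 to 28647248 (1920 bases, score 94.6), with 12 other peaks within 50 kb. These 2 were the only members of 1500 bases or more.

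The third, of 1468 bases, was on chromosome 14 from 27569356 to 27570823 and scored 60.6. The fourth, of 1404 bases, was on chromosome 4 from 138037145 to 138038548 and scored 96.1. The fifth, of 1351 bases, was on chromosome 13 from 74769606 to 74770956 and scored 83.6. Another peak of 510 bases lay 228 bases from it. Widths of the remaining 5 ran from 1335 bases on chromosome 1 (91902175 to 91903509) to 1215 bases on chromosome 14 (61752973 to 61754187). The others of these 5 were on chromosome 11 (6548632 to 6549960 and 100247479 to 100248715) and on chromosome 1 from 186726630 to 186727935. Their scores, from 53.6 to 83.8, were lower than those of the 2 widest.

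Strong peaks, defined here as a score of 1000 or more, were within 50 kb of 2 of these 10 members. They were the member on chromosome 1 from 186726630, with 1 strong peak 34330 bases away, and the member on chromosome 11 from 100247479, with 3, the nearest at 19439 bases. For the other 8 the nearest strong peak was between 89183 and 545274 bases away. Among all broad weak peaks, 41.5% (233 of 561) had a strong peak within 50 kb. With 10 members, a count of 2 is not read as a difference from this share.

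**Figure D1:**
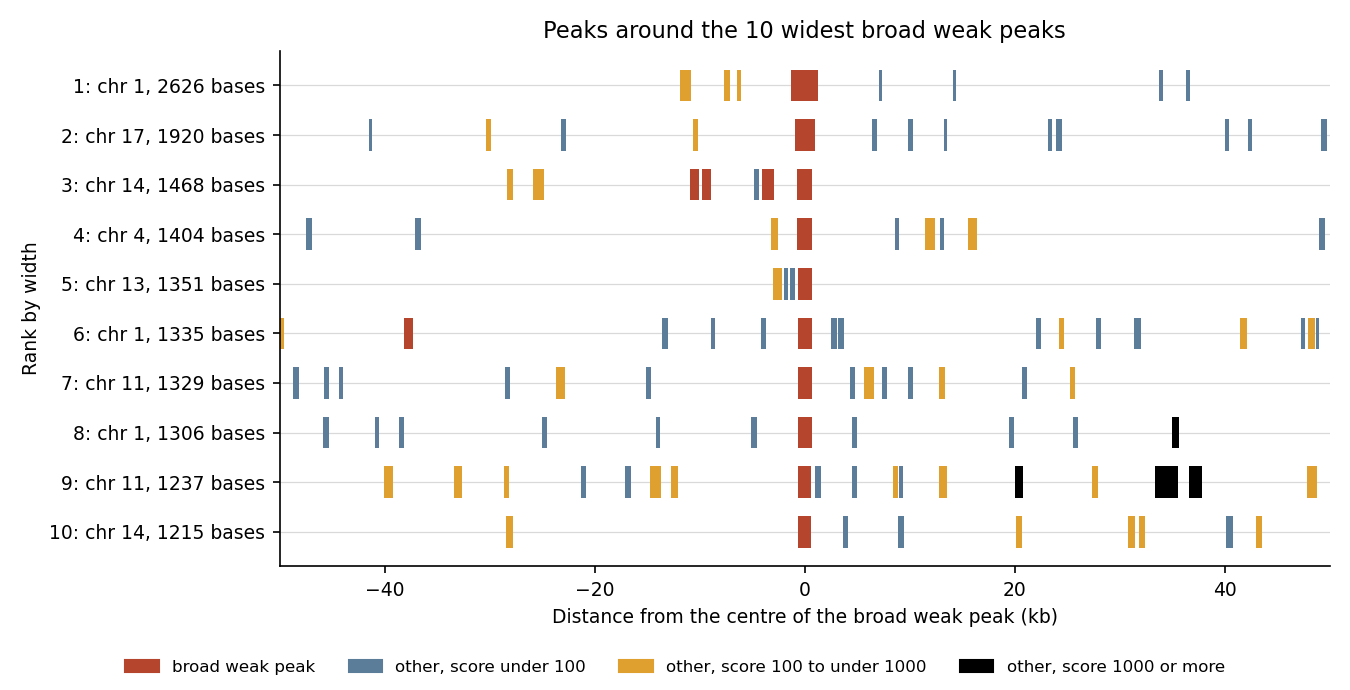
Each line is one of the 10 widest broad weak peaks, with every peak of the list within 50 kb drawn to scale by its distance in kb from the member's centre. Colour gives the class of each peak, and all broad weak peaks are red. Strong peaks appear only on the lines of ranks 8 and 9, and the line of rank 3 holds 4 broad weak peaks.

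Broad weak peaks had nearer neighbours than narrow weak peaks. Another peak lay within 10 kb, measured from edge to edge, for 461 of 561 (82.2%, interval 78.8% to 85.3%), against 38700 of 52150 narrow weak peaks (74.2%, 73.8% to 74.6%). The difference was 7.97 percentage points (Newcombe 95% interval 4.56 to 10.9). Within 1 kb the shares were 30.3% (26.5% to 34.3%) and 22.3% (21.9% to 22.7%). The median gap to the nearest peak was 2388 bases (quartiles 722 and 6488) for broad weak peaks. For narrow ones it was 3816 bases, 1.60 times as long.

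More peaks also surrounded them over wider windows. Broad weak peaks had a mean of 10.9 other peaks within 50 kb of their edges (SD 6.69 over peaks, median 10), and narrow weak peaks had 8.86 (SD 6.37, median 8). The difference of 2.00 peaks was smaller than the spread within either group, so the groups overlapped widely. Within 500 kb the means were 89.5 and 76.2. Of the broad weak peaks, 39.9% (35.8% to 44.1%) lay in 1 Mb bins with 100 or more peaks, against 28.9% (28.5% to 29.3%) of the narrow ones. At the sparse end, 8 of 561 (1.43%, 0.618% to 2.79%) had no other peak within 50 kb, against 3.81% (3.64% to 3.97%).

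The differences in surroundings were smaller against narrow weak peaks of the members' own 1 Mb bins. When narrow weak peaks were weighted so that each 1 Mb bin counted as often as it held members, their mean count within 50 kb was 10.4, and the difference was 0.481 peaks in place of 2.00. The difference in the share with a peak within 10 kb was 2.50 percentage points in place of 7.97. By construction each of these bins holds a member, which narrow weak peaks there can count as a neighbour and the member itself cannot. How much this lowered the differences was not measured. These weighted values have no interval, and the source of the differences was not tested. When the narrow peaks were weighted to the members' scores instead, in steps of 5, the differences were 1.95 peaks and 7.64 percentage points. The scores of the 2 groups therefore moved these differences little. In each 10-point step of score from 50 to 100, broad weak peaks had the higher mean count, from 9.96 against 8.98 at scores of 80 to 90 to 12.5 against 8.92 at 70 to 80.

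Members with the most neighbours lay in 5 dense regions on as many chromosomes. The highest count, 35 other peaks within 50 kb, belonged to a peak of 804 bases on chromosome 17 from 27551366 to 27552169. Counts of 33 were found on chromosome 10 from 79488636 to 79489587 and also on chromosome 11 from 117610621 to 117611475. On chromosome 10 the nearest peak was 147 bases away. Counts of 30 were found on chromosome 7 from 148233627 to 148234449 and likewise on chromosome 8 from 74127038 to 74127898. In 4 of these 5 neighbourhoods no peak within 50 kb was strong, and the exception on chromosome 11 had 3 strong peaks. Among all members, 41.5% had at least 1 strong peak within 50 kb, and 5 members are too few to set against that share.

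The 8 members without a neighbour lay on 6 chromosomes, 2 each on chromosomes 1 and 3. The most remote was on chromosome 12 from 116852207 to 116853046, with the nearest peak 450407 bases away. Another was on chromosome 3 from 159213009 to 159213819, with 200031 bases to the nearest peak. Their widths were ordinary for the class, from 807 to 913 bases. A broad weak peak could also stand alone.

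Closeness of neighbours changed with width along the weak peaks as a continuous gradient, and the class did not stand out from the widths just below it. The share with another peak within 10 kb was 60.6% (58.7% to 62.5%) for weak peaks under 300 bases, 74.4% (73.84% to 75.05%) at 400 to under 500 bases and 81.3% (78.5% to 83.9%) at 700 to under 800 bases. It was 82.2% (77.8% to 86.0%) at 800 to under 900 bases, 79.3% (71.4% to 85.8%) at 900 to under 1000 and 87.7% (77.9% to 94.2%) at 1000 or more. The intervals of the 3 member classes and of the class just below them overlap. The mean number of other peaks within 50 kb went from 6.41 under 300 bases to 10.9 at 700 to under 800 bases and was 11.1, 10.5 and 10.3 in the member classes.

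**Figure D2:**
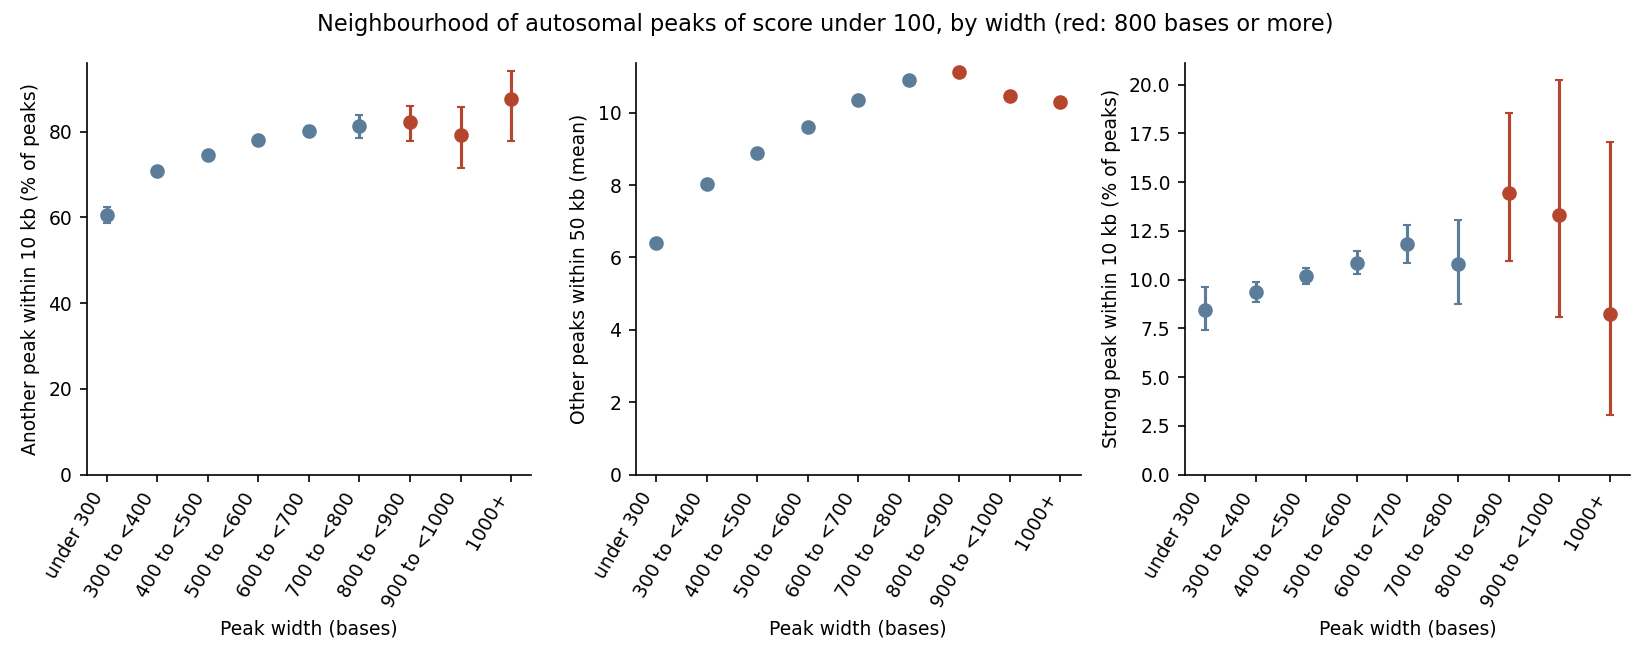
Autosomal peaks of score under 100 are grouped by width in bases (horizontal axis), with broad weak peaks in red. The panels give the percent with another peak within 10 kb, the mean number of other peaks within 50 kb, and the percent with a strong peak within 10 kb; bars are exact 95% intervals of shares. The first 2 measures climb with width up to 700 to under 800 bases (81.3% and 10.9 peaks) and show no further steady increase beyond it.

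Close neighbours went with width in every score class, so they were not particular to weak peaks. Among peaks of 800 bases or more, another peak lay within 10 kb for 82.2% at scores under 100, 84.9% (83.4% to 86.2%) at 100 to under 200, 83.0% (81.5% to 84.4%) at 200 to under 500, 82.4% (80.4% to 84.4%) at 500 to under 1000, and 81.7% (80.2% to 83.1%) at 1000 or more. Among peaks under 500 bases the share was lower with each step of score up to 1000, from 72.1% (71.6% to 72.6%) under 100 to 51.2% (46.5% to 55.8%) at 500 to under 1000. It was 51.4% (45.4% to 57.5%) at 1000 or more. The gap between broad and narrow peaks was therefore smallest among the weak ones.

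**Figure D3:**
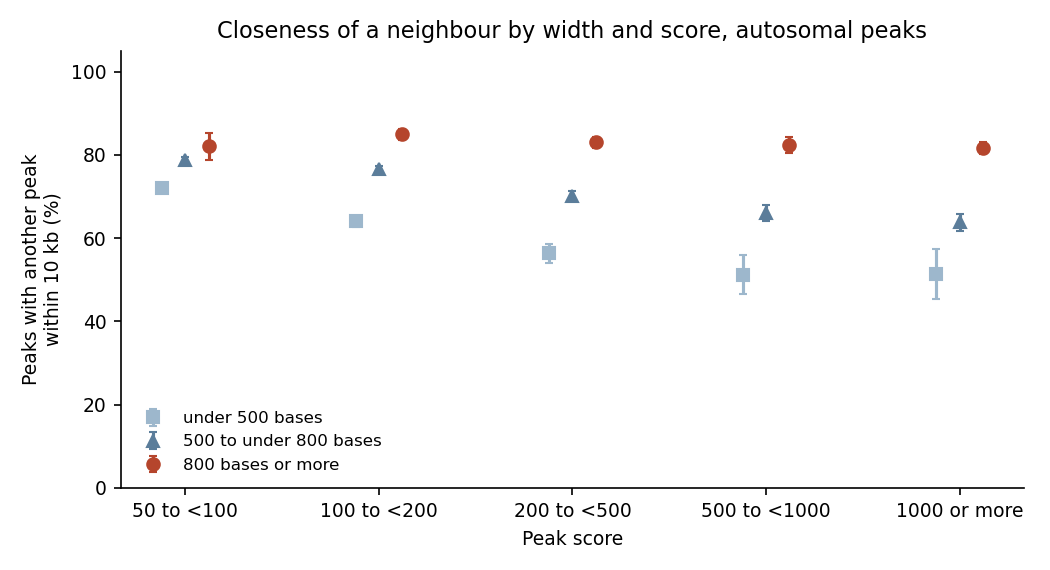
The percent of autosomal peaks with another peak within 10 kb (vertical axis) is shown by score class (horizontal axis) for 3 width classes, with exact 95% intervals. Peaks of 800 bases or more lie between 81.7% and 84.9% in all 5 score classes, while peaks under 500 bases go from 72.1% to 51.4%.

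Strong peaks lay near broad weak peaks slightly more often than near narrow ones. A strong peak was within 10 kb of 75 of 561 broad weak peaks (13.4%, 10.7% to 16.5%) and of 5309 of 52150 narrow weak peaks (10.2%, 9.92% to 10.4%). The difference was 3.19 percentage points (Newcombe 95% interval 0.607 to 6.27). Within 50 kb the shares were 41.5% (37.4% to 45.7%) and 34.9% (34.5% to 35.3%). The median distance to the nearest strong peak was 70107 bases (quartiles 23290 and 160664) for broad weak peaks and 86685 bases for narrow ones. The strong neighbours themselves were alike, with a median score of 1991 beside broad weak peaks and 2070 beside narrow ones, and median widths of 932 and 921 bases.

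The higher share near a strong peak went with the higher number of neighbours of all kinds. Of the members with a peak within 10 kb, the nearest was strong for 27 of 461 (5.86%, 3.89% to 8.41%), and for narrow weak peaks it was strong for 2275 of 38700 (5.88%, 5.65% to 6.12%). Of all pairs of a peak and a neighbour within 50 kb, 5.27% had a strong neighbour for broad weak peaks and 5.29% for narrow ones. The difference of 3.19 percentage points also depended on the thresholds. It was -1.96 for members of 1000 bases or more, where 8.22% (3.08% to 17.0%) had a strong peak within 10 kb, and -1.08 when only scores under 75 were kept. It was 1.62 when narrow weak peaks were weighted to the members' 1 Mb bins, and 1.65 with a width threshold of 700 bases. Taking strong as a score of 2000 or more gave 6.77% against 5.49%, a difference whose interval (-0.524 to 3.68) includes 0.

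Some members lay close beside a strong peak. There were 16 members with a strong peak within 1 kb (2.85%, 1.64% to 4.59%), against 1.804% (1.69% to 1.92%) of narrow weak peaks, and these intervals overlap. The smallest gap was 8 bases, on chromosome 2, between the member from 31654154 to 31655116 and a peak of 1971 bases with a score of 1679. On chromosome 18 the member from 74828888 to 74829699 ended 49 bases before a peak of score 1308. On chromosome 13 the member from 53307731 to 53308598 began 64 bases after a peak of score 2197.

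Gaps of 117 and 166 bases followed, on chromosome 5 from 145719037 to 145719877 beside a peak of score 2885, and then on chromosome 4 from 40836875 to 40837699 beside a peak of score 2250. All 5 had scores above 91. Among all broad weak peaks 33.2% scored 90 or more, and 5 members are too few to set against that share. Most members had no strong peak so close, and for 486 of 561 the nearest was more than 10 kb away. Most narrow weak peaks also had none within 10 kb, where the shares with a strong peak were 13.4% for broad and 10.2% for narrow ones.

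Neighbours of broad weak peaks were more often broad themselves. Of the nearest peaks within 10 kb, 17.1% (13.8% to 20.9%) were 800 bases or wider beside broad weak peaks and 12.8% (12.5% to 13.2%) beside narrow ones. Over all pairs within 50 kb the shares were 17.0% and 13.6%. Weak peaks made up 59.9% (55.2% to 64.4%) and 57.7% (57.2% to 58.2%) of the nearest peaks, and these intervals overlap.

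The same held for peaks that could not be members because their score was 100 or more. In 1 Mb bins without a member, 21.7% (21.2% to 22.2%) of such peaks were 800 bases or wider. The share was 28.8% (27.9% to 29.8%) in bins with 1 member, 31.2% (29.6% to 32.8%) with 2 and 35.7% (33.3% to 38.2%) with 3 or more. Bins with members also held more peaks, with a median of 21 peaks in bins without a member and 113 in bins with 3 or more. Among bins with 50 to under 100 peaks, the share was 25.5% (24.7% to 26.5%) without a member, 28.0% (26.5% to 29.4%) with 1 member and 26.6% (24.1% to 29.3%) with 2 or more. In this class of bins the shares differed by at most 2.40 percentage points. The intervals without a member and with 1 member do not overlap, and that with 2 or more overlaps both. Other classes of peak number were not compared in this way.

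Dense bins held a larger proportion of broad peaks among their weak peaks. In bins with fewer than 25 peaks, 0.658% (0.469% to 0.899%) of weak peaks were broad. The proportion was 0.697% at 25 to under 50 peaks, 1.09% at 50 to under 100 and 1.34% at 100 to under 150, and it was 1.87% (1.46% to 2.37%) in the 36 bins with 150 or more. The median score of the weak peaks was between 64.3 and 65.4 in all of these classes, and their median width went from 421 to 473 bases.

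Broad weak peaks were found on all 19 autosomes. They made up 1.06% of weak peaks over all autosomes and 1.02% ± 0.279 (mean ± SD, n = 19 autosomes) taken chromosome by chromosome. Chromosome 17 had the highest proportion, 1.69% (43 of 2551, 1.22% to 2.26%), followed by chromosome 4 with 1.39%, chromosome 11 with 1.36% and chromosome 7 with 1.34%. Chromosome 18 had the lowest, 0.555% (9 of 1623, 0.254% to 1.05%), and chromosomes 3 and 12 had 0.709% and 0.710%. The interval of chromosome 17 lies above those of chromosomes 3, 12 and 18, and the intervals of all other pairs of autosomes overlap. Per Mb, members ranged from 0.102 on chromosome 3 to 0.488 on chromosome 11.

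**Figure D4:**
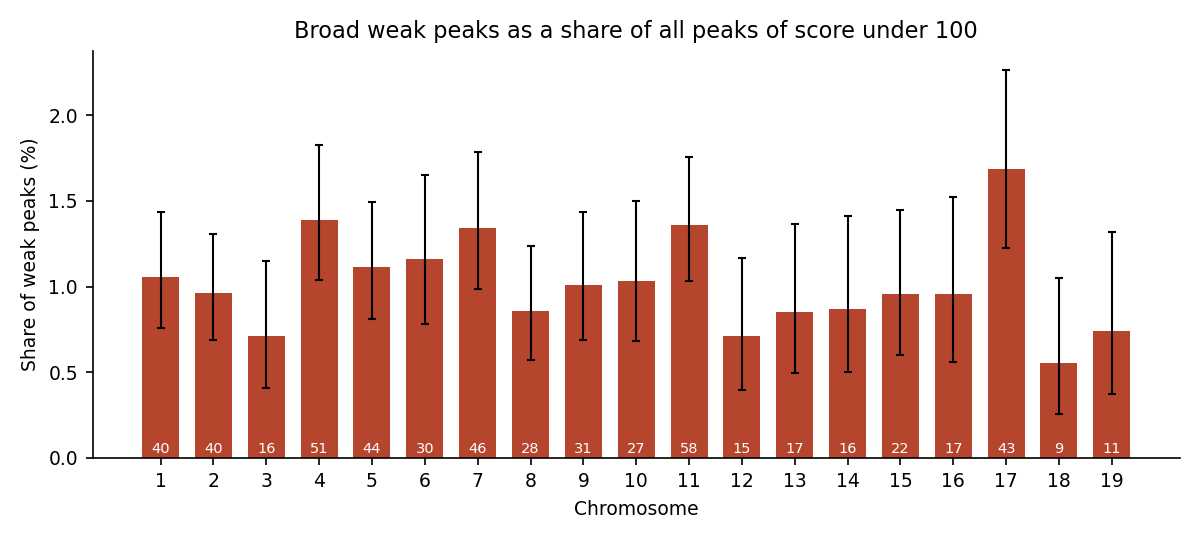
Bars give broad weak peaks as a percent of all peaks of score under 100 on each autosome, with exact 95% intervals and the number of broad weak peaks at the foot of each bar. Chromosome 17 stands highest at 1.69% and chromosome 18 lowest at 0.555%.

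Chromosome 17 owed part of its place to a single megabase. The bin from 27000001 to 28000000 held 10 members among 97 weak peaks (10.3%), and no other bin in the list held more than 6. Without it, chromosome 17 had 33 members among 2454 weak peaks (1.34%, 0.927% to 1.88%), close to chromosomes 4, 7 and 11. Of the 176 peaks in this bin, 45 were 800 bases or wider at any score and 8 were strong. Its neighbours at 26000001 and 28000001 held 1 and 3 members among 67 and 93 weak peaks.

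The 10 members of this bin ran from 27307627 to 27740653. Their widths were 804 to 1185 bases (median 900) and their scores 52.5 to 95.6 (median 76.4). Each had between 10 and 35 other peaks within 50 kb (median 21). A strong peak of score 3100 from 27479887 to 27481209 lay between 2 of them. One, from 27471173 to 27472357, ended 7529 bases before it, and the other, from 27481902 to 27482741, began 692 bases after it. Strong peaks on other chromosomes had exactly the same score of 3100, so it is not read as a level particular to this peak.

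Elsewhere most bins with a member held only 1. The counts of bins were not set against an expected number. Of 2394 autosomal bins with a peak, 405 held a member, 297 of them only 1 and 77 of them 2. The second densest bin was on chromosome 11 from 119000001 to 120000000, with 6 members among 138 weak peaks. Bins with 4 members were found on chromosomes 1, 5, 7, 11 (3 bins) and 14. The proportion of weak peaks that were broad was 10.8% in the bin on chromosome 1 from 173000001 (4 of 37) and 10.3% in that on chromosome 14 from 27000001 (4 of 39), but these rest on 4 members each.

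Few broad weak peaks had another member close by, but they had one more often than narrow weak peaks did. Members made up only 0.608% of autosomal peaks. Another member lay within 10 kb for 24 of 561 (4.28%, 2.76% to 6.30%), and a member lay within 10 kb of 1.45% (1.35% to 1.55%) of narrow weak peaks. The difference was 2.83 percentage points (Newcombe 95% interval 1.44 to 4.84). Within 50 kb the shares were 11.1% and 6.05%. With narrow weak peaks weighted to the members' 1 Mb bins, the direction turned, with 4.28% against 5.15%; each of these bins holds a member by construction. When members were joined across gaps of up to 10 kb, 537 stood alone, 20 formed 10 pairs and 4 formed a single longer run. That run spanned 11645 bases on chromosome 14 from 27559179 to 27570823 and held all 4 members of its bin. Its members were 840, 886, 1163 and 1468 bases wide with scores of 57.8, 68.1, 98.7 and 60.6, and no strong peak lay within 50 kb of any of them.

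The pairs included 2 in the dense bin of chromosome 17, from 27449248 to 27457395 and from 27471173 to 27482741. The tightest pair spanned 2056 bases on chromosome 11, from 119537233 to 119539288. The next spanned 2314 bases on chromosome 9, from 57994606 to 57996919. A pair on chromosome 17 from 3073155 to 3077413 lay beside the first peaks of that chromosome.

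The greater local density of broad weak peaks was seen on most autosomes. The mean number of other peaks within 50 kb was higher for broad than for narrow weak peaks on 16 of 19, and the difference per chromosome was 1.47 ± 1.21 peaks (mean ± SD, n = 19). It was largest on chromosome 17 (14.1 against 10.6), chromosome 2 (12.6 against 9.49) and chromosome 11 (14.2 against 11.2). On chromosome 4 it went the other way (9.98 against 10.6), and on chromosomes 12 and 16 the differences were -0.124 and -0.176. Without the dense bin, chromosome 17 had 11.97 against 10.3.

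The share with another peak within 10 kb was higher for broad weak peaks on 15 of 19 autosomes, and the difference was 7.05 ± 10.7 percentage points, a spread above the mean. All 9 members on chromosome 18 had such a neighbour, but only 43.8% of the 16 members on chromosome 3 did, against 61.5% of its narrow weak peaks. The share with a strong peak within 10 kb was higher on 12 of 19 and lower on 7, with a difference of 3.03 ± 8.01 percentage points. This spread also exceeds the mean, and neither direction was shared by all chromosomes. No member had a strong peak within 10 kb on chromosome 3 (0 of 16, which allows a share of up to 18.8%) or on chromosome 19 (0 of 11, up to 27.3%). Narrow weak peaks had shares of 7.68% and 10.8% on these chromosomes, below those limits. The limits for a count of 0 take 3 counts as the most allowed, and they are not exact Clopper-Pearson limits.

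**Figure D5:**
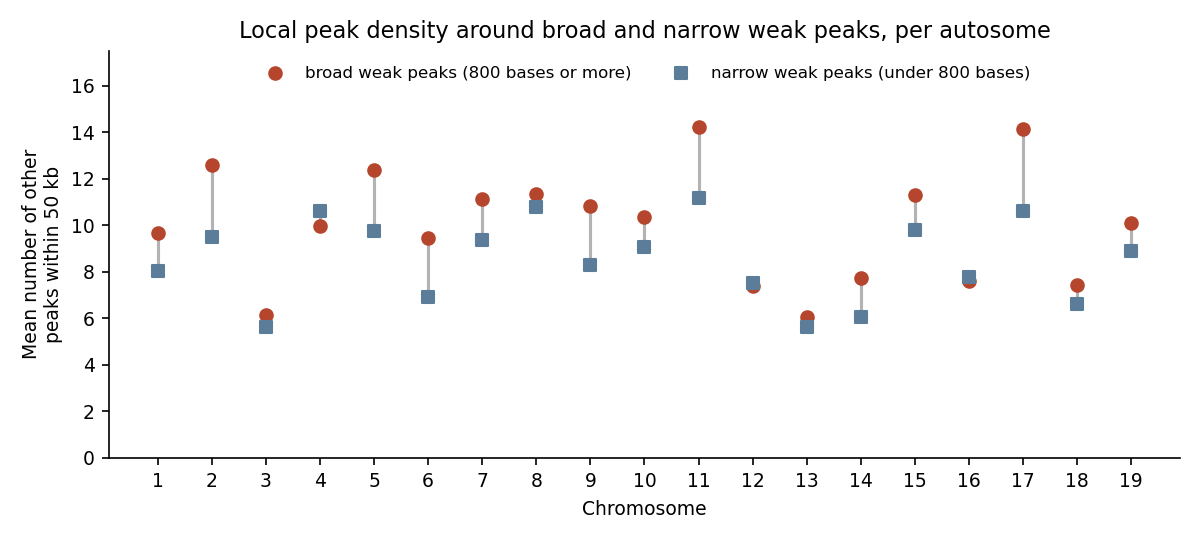
For each autosome the mean number of other peaks within 50 kb is shown for broad weak peaks (red circles) and narrow weak peaks (blue squares), joined by a line. The circle lies above the square on 16 of 19 autosomes, with chromosomes 4, 12 and 16 as exceptions.

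Position along the chromosome did not set broad weak peaks apart. Within 1 Mb of the first peak of a chromosome there were 3 of 561 (0.535%, 0.110% to 1.55%), against 0.679% (0.610% to 0.753%) of narrow weak peaks. They were the pair on chromosome 17 and a peak on chromosome 19 from 3443871 to 3444692. The final 10% of the stretch from first to last peak held 18.5% (15.4% to 22.0%) of broad and 17.9% (17.6% to 18.2%) of narrow weak peaks. The share in this final 10% was higher for broad weak peaks on 8 autosomes and lower on 11. On chromosome 17 it held none of 43 members, which allows a share of up to 6.98%, just below the 7.02% of its narrow weak peaks. That gap is too small to be read as a depletion. It also held none of the 16 members on chromosome 14 (up to 18.8%) and none of the 9 on chromosome 18 (up to 33.3%). Narrow weak peaks had 11.8% and 8.67% there, so these zeros are not read as a depletion. These limits take 3 counts as the most that a count of 0 allows, and they are not exact Clopper-Pearson limits. The initial 10% held 6.60% (4.69% to 8.98%) and 7.37% (7.14% to 7.59%).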

How the data were processed

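One library of p53 ChIP DNA and one of input DNA, grouped by their titles, gave a single deposited list of peaks on build mm9. The submitters' processing notes name CASAVA 1.8.2 and MACS 1.4.1. Not given in the sources used here were the aligner and the settings, and depth per sample is unknown. The deposited score of each peak starts at 50; this caller writes −10 × log10 of its p-value. Both the score and the width of a peak depend on read depth and on how the caller joins windows. Starts, which the deposited file counts from 0, are printed counted from 1; width is end minus start.

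Gaps were taken from edge to edge, and a neighbour was counted by its nearest edge. Peaks were assigned to 1 Mb bins by midpoint. Chromosome ends are the first and last peaks. Values were computed with SciPy 1.17.1, pandas 2.3.3, NumPy 2.4.6 and Matplotlib 3.10.9 under Python 3.11.15. The neighbour functions were checked against brute force on simulated lists. No test was run, because peaks of 1 list are not replicates; shares have exact Clopper-Pearson 95% intervals and differences of shares Newcombe intervals. Positions were named by rule: the 10 widest members, the 5 with most peaks within 50 kb, the 5 nearest to a strong peak, the longest run of members, and the chromosomes with extreme proportions. Members without a neighbour, those near a first peak, pairs, and members of the densest bin were named after their values were seen. The members, the comparison and the measures were chosen with earlier results of these data known. Alternatives covered the width and score thresholds, distances, the strong threshold, merging, weighting and left-out regions. Base composition, motifs and genes were not analysed here, since no mm9 sequence or annotation was at hand. X and Y were outside the rule.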

Additional observations from a re-analysis of the deposited data

How the results depend on the processing

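Differences are broad minus narrow weak peaks, in percentage points unless peaks are named. Of 90 alternatives over 5 measures, 87 kept the direction and 3 reversed it. This tally does not measure robustness. In 42 of the 90, 1 autosome or the densest bin was left out, so most peaks stayed the same. For nearness to the first peak, the interval of the reported difference (-0.5045 to 0.884) includes 0, so it had no clear direction to keep. The share near a strong peak, 3.19 as reported, was -1.96 for members of 1000 bases or more (73 members) and -1.08 for scores under 75 (178 members). The share near another member, 2.83 as reported, was -0.867 when narrow peaks were weighted to the members' 1 Mb bins; by construction each such bin holds a member for its narrow peaks, while a member needs a second one. That weighting also gave 2.50 for any peak within 10 kb, 0.481 peaks within 50 kb and 1.62 for a strong peak, which a width threshold of 700 bases put at 1.65. The same construction bears on the values for any peak, since narrow peaks can count the member as a neighbour. The share with a peak within 10 kb was 13.5 for members of 1000 bases or more, 13.8 with peaks up to 1 kb apart merged and 2.38 at 50 kb. Merging made 3063 broad weak regions, of which 391 were single deposited members. Most of these regions were made by joining close neighbours, so their width itself depended on neighbours. The merged values therefore cannot serve as a check on closeness. Other windows rescale the measure: 0.566 peaks at 10 kb, 13.2 peaks at 500 kb, 6.63 for a strong peak within 50 kb and 5.002 for a member within 50 kb. Near the first peak, -0.144 at 1 Mb as reported became -0.615 at 5 Mb and -0.679 for members of 1000 bases or more. Leaving out 1 autosome at a time gave 1.81 to 2.22 peaks within 50 kb and 2.67 to 3.94 for a strong peak. This and leaving out the densest bin, after which the 4 measures tried kept their direction, were chosen after seeing the data. No paired analysis was possible because there is only 1 ChIP library, and no library could be left out. The alternative for sequence features was not run. Unknown read depth limits statements on weak peaks. The causes of the changes were not tested.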

Other observations

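Chromosome X, outside the rule, held 1 peak that met the same thresholds among its 295 weak peaks (0.339%, exact 95% interval 0.00858% to 1.87%). It lay from 32100924 to 32101832 and had a score of 97.5. The autosomal proportion of 1.06% falls inside this interval.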
